A study of Mus musculus with 18 samples.

Results

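Long intergenic noncoding RNAs (lincRNAs) are transcripts that lie between protein-coding genes and carry no recognised protein product. Some of them act in the nucleus on chromatin or on the structure of nuclear bodies, and others act as decoys or scaffolds for proteins and small RNAs. Many are switched on in a single lineage or at a single step of differentiation. In annotation the class is provisional, because a transcript can move between the noncoding and the protein-coding catalogue as evidence accumulates.

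Expressed lincRNAs were selected on 2 columns of the deposited expression table, namely a transcript type of lincRNA (or lncRNA) and a mean of at least 5 TPM (transcripts scaled by length and library to a common total) in at least 1 of 3 stages of neutrophil development. Of 34896 genes in the table, 12 were typed lincRNA and 0 were typed lncRNA. A single gene passed, Gm17455 (ENSMUSG00000090439), and it passed through the mature neutrophil values alone. The choice therefore rested on the measured levels, and the stage pattern of Gm17455 given below is a description of the gene that was chosen by it. The 12 typed genes stand against 5854 lincRNA genes of the GENCODE M21 annotation, so the table used here covers little of that class.

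The cells came from the bone marrow of adult C57BL/6 mice, 6 to 12 weeks old and with no treatment stated. RNA-seq was performed on wild type granulocyte-monocyte progenitors (GMP), pre-neutrophils (preNeu) and mature neutrophils (matNeu), with 3 libraries each, all sorted by surface markers. Chromatin immunoprecipitation for the nucleosome remodeller CHD4 was performed in wild type and in Gfi1-/- GMPs, for dimethylated lysine 4 of histone H3 (H3K4me2) in wild type GMPs, preNeu and matNeu, and open chromatin was mapped by ATAC-seq in wild type preNeu and matNeu, with 1 library per list. Gfi1-/- mice lack GFI1, a transcriptional repressor of the myeloid lineage. H3K4me2 is a histone mark of promoters and enhancers, and CHD4 is the ATPase of the NuRD complex. The titles of 13 of 18 samples named another stage than their cell type field, the 9 RNA-seq libraries among them, and the titles were followed. All 16 fixed stage markers (for example Mpo for GMP, Ltf for preNeu and Cxcr2 for matNeu) had their highest mean in the stage of the title. The labels do not say whether the 3 libraries of a stage came from separate mice, so the spread between them may be technical. TPM values keep no read depth, which is unknown here.

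The annotation went against the label of Gm17455. GENCODE M21 and RefSeq both list it as protein coding. It occupies chr10:60399726-60403559 (GRCm38, plus strand, 3834 bp) and lies whole inside Cdh23, which runs on the minus strand over chr10:60302748-60696490. Gm17455 is thus neither intergenic nor noncoding in that annotation and is called by its gene name below. Its span falls within intron 29 of the Cdh23 transcript with the most exons (71), and 0 of its exons overlapped a Cdh23 exon. M21 gives 3 transcripts of 2 exons each, which start at 60399726, 60399904 and 60400757 and are 858, 375 and 337 bases long after splicing. The longest open reading frame of the 858-base transcript spans 384 bases before the stop, or 128 codons, and is the coding sequence that M21 gives. No other gene of M21 had a transcript that aligned to it over 100 bases at 95% identity or more, so the reads are not shared with a near-identical copy at that limit. The library kit marks strand, but whether strand was used in quantification is not given in the sources used here. Without it, reads within an exon of Gm17455 cannot be told apart from reads of unspliced Cdh23 RNA, unlike reads across the Gm17455 splice junction.

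3 sequences of the locus are shown, because the typing and the peaks described below refer to them. They are the RefSeq promoter window of Gm17455 (250 bases before to 50 after the start, chr10:60399476-60399775), the 300 bases around the summit of the nearest CHD4 peak in wild type GMPs (chr10:60389540-60389839) and the first 60 bases of the reading frame (chr10:60402958-60403017), all from GRCm38.p6 on the plus strand. Capitals mark CG dinucleotides in the first pair and the start codon in the third.
Gm17455 promoter: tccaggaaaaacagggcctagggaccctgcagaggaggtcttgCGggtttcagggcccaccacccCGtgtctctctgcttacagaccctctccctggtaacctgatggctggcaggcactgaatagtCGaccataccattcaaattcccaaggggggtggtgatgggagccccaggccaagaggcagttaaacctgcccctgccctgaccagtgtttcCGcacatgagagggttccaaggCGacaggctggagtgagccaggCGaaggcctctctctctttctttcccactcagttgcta
CHD4 peak summit: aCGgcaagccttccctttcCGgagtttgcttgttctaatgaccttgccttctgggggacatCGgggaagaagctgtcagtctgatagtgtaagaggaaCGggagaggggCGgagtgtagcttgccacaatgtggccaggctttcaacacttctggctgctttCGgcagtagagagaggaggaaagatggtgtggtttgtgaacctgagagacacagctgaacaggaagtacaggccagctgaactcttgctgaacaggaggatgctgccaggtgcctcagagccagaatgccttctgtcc
Gm17455 reading frame: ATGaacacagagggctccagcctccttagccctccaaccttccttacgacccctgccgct
Each of the first pair holds 6 CG dinucleotides, against a median of 7 over 32817 promoter windows of the same length in RefSeq, and the promoter has a GC content of 58.3% against a median of 52.7%. The core motif of GFI1 (AAATCA, both strands) was found in neither window, while 13.99% of all promoter windows and 18.9% of 35728 CHD4 summit windows held it. For the myeloid factor SPI1, only the exact sequence GAGGAAGT, 1 form of its motif, was searched on both strands. It was found in neither window, while 3.20% of promoters and 13.3% of CHD4 summit windows held it. Shorter or variant forms were not searched, and the summit sequence holds the shorter form GAGGAA.

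Gm17455 was listed at 0 TPM in all 3 GMP libraries. In preNeu it was listed at 0, 0 and 3.02 TPM, and in matNeu at 70.5, 18.7 and 43.3 TPM. The matNeu libraries lay above every GMP and preNeu library, whereas GMP and preNeu overlapped. The mean was thus 0 TPM for GMP. It was 1.01 ± 1.75 TPM (SD, n = 3) for preNeu. For matNeu it reached 44.2 ± 25.9 TPM (SD, n = 3). In bulk samples such as these, fewer cells that hold the transcript and less of it per cell cannot be told apart. In matNeu it ranked 2744 by mean TPM among all genes, of which 11114 had a mean of at least 1 TPM.

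**Figure D1:**
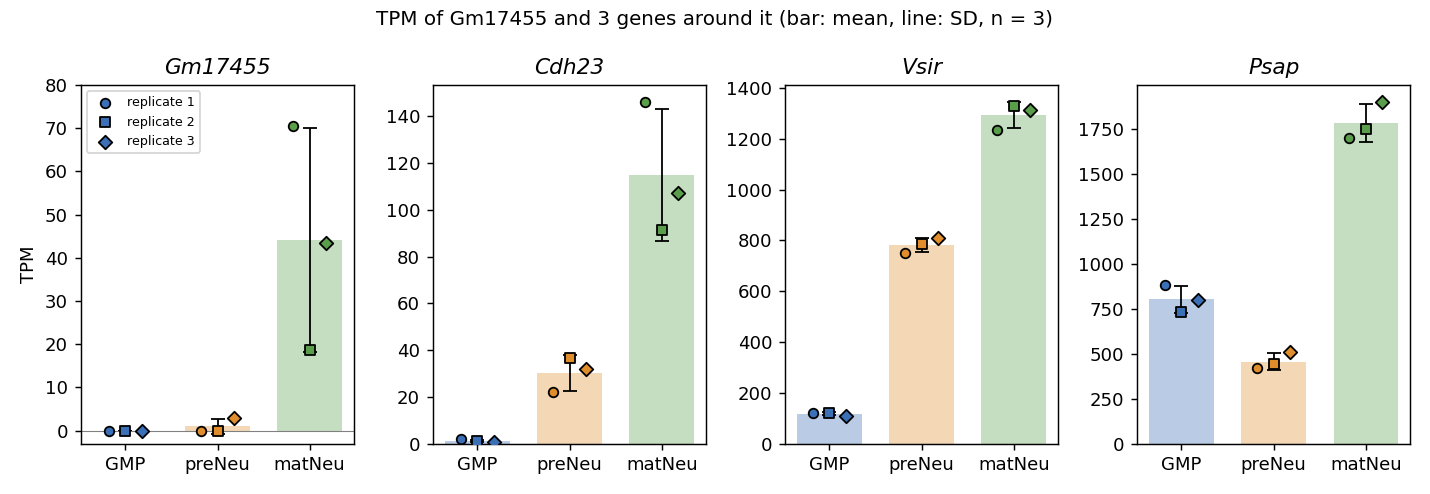
TPM of Gm17455, Cdh23, Vsir and Psap in GMP, preNeu and matNeu, with 1 marker per library, bars for the mean and lines for the SD (n = 3), on a linear scale of its own for each gene. Gm17455 reads 0 in GMP and 18.7 to 70.5 TPM in matNeu, and Cdh23 and Vsir are also highest in matNeu and lowest in GMP, while Psap is lowest in preNeu.

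In a fit across 13061 genes (limma on log2(TPM + 1), Benjamini-Hochberg adjustment), Gm17455 differed by 4.64 ± 0.58 (SE) on the log2(TPM + 1) scale between matNeu and preNeu (adjusted p = 3.87e-05) and by 0.67 ± 0.58 between preNeu and GMP (adjusted p = 0.346). It counted as higher in matNeu than in preNeu, as did 22.9% of all genes tested, and as higher in matNeu than in GMP, as did 22.8%. It was not among the 14.7% of genes called higher in preNeu than in GMP. The SE is pooled over all stages, and GMP, at 0 in every library, adds no spread. The SE may thus understate the spread of matNeu and preNeu. Since the mean level in these libraries chose the gene, nothing is read from these calls. The whole preNeu value rests on preNeu replicate 3, without which the gene is listed at 0 in preNeu and the difference from GMP is 0.00. The median of all genes tested differed by -0.92 between matNeu and GMP and by -0.52 between preNeu and GMP on the same scale. After rescaling by median ratios these medians were -0.20 and -0.09, and Gm17455 read 90.4, 25.5 and 54.0 in matNeu.

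In TPM as deposited, a highest mean in matNeu was a minority pattern among genes at the same threshold. The shares below were not computed after rescaling by median ratios. That rescaling moved the median log2(TPM + 1) difference between matNeu and GMP from -0.92 to -0.20. Of 10777 genes with a stage mean of at least 5 TPM, 57.5% had their highest mean in GMP, 15.3% in preNeu and 27.2% in matNeu. In all, 129 genes were listed at 0 in all GMP libraries and had a matNeu mean of at least 5 TPM. Gm17455 was among them, with 18 of these genes at a higher matNeu mean, and 52 of the 129 were typed protein coding.

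The matNeu values of Gm17455 varied widely between libraries. The highest library was 3.77-fold above the lowest, and the coefficient of variation was 58.6%. Among 2566 genes whose matNeu mean lay within 2-fold of its own, the median coefficient of variation was 15.9%, and 2.30% of them varied as much or more. Replicate 2, the lowest in Gm17455, also had the highest sums of GMP markers (32.7 TPM against 9.55 and 9.32) and of preNeu markers (3977 TPM against 2646 and 2039). Its single plasma cell marker Jchain read 12.9 TPM against 0.720 and 1.29, and its 2 T cell markers summed to 14.1 TPM against 9.39 and 6.65. The matNeu markers summed to 24187, 25498 and 27246 TPM in replicates 1, 2 and 3. Of the other lists, the 4 B cell markers summed to 58.1 to 132 TPM, the 4 macrophage markers to 93.2 to 131 TPM, the 3 monocyte markers to 678 to 1162 TPM and the 4 erythroid markers to 4.82 to 12.3 TPM in matNeu, and 0 of these markers was at 0. The megakaryocyte pair summed to 2.90 to 4.58 TPM and the basophil or mast cell pair to 1.01 to 6.39 TPM there. Of these lists, the B cell, macrophage and erythroid markers were highest in replicate 3 and the megakaryocyte pair in replicate 1. The monocyte markers and the basophil or mast cell pair were highest in replicate 2. In GMP, where Gm17455 was listed at 0, the monocyte markers summed to 2739 to 3370 TPM and the B cell markers to 78.9 to 94.5 TPM. In preNeu the macrophage markers summed to 216 to 314 TPM. The part of other cells in the spread of Gm17455 was not tested.

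Of the genes around Gm17455, only Cdh23, Vsir and Psap are given, chosen after their values were seen. All 3 were highest in matNeu, as were 27.2% of genes with a stage mean of at least 5 TPM. Of all genes tested, 22.9% were called higher in matNeu than in preNeu and 14.7% higher in preNeu than in GMP. No pattern of the locus is read from these genes. Cdh23, the host gene on the opposite strand, encodes a cadherin best known from the tip links of sensory hair cells. It was at 1.79, 1.01 and 0.808 TPM in GMP, at 22.0, 36.8 and 31.9 TPM in preNeu and at 146, 91.6 and 107 TPM in matNeu. The 3 stages of Cdh23 did not overlap, and it was higher by 3.82 ± 0.27 (SE, log2(TPM + 1)) in preNeu than in GMP and by 1.90 ± 0.27 in matNeu than in preNeu (adjusted p = 1.24e-06 and 9.4e-05, limma). The matNeu libraries kept the same order in Gm17455 and Cdh23, with replicate 1 highest and replicate 2 lowest. Vsir and Psap did not share that order, both being lowest in replicate 1. Nothing is read from the order of 3 libraries. In TPM, which is scaled per length, Gm17455 stood at 0.482, 0.204 and 0.404 of Cdh23 in matNeu, at 0.0949 of it in preNeu replicate 3 and at 0 in the other preNeu libraries. Cdh23 reached 22.0 TPM or more in every preNeu library while Gm17455 was listed at 0 in a pair of them. The part of unspliced Cdh23 RNA in the Gm17455 values was not tested.

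Vsir, which encodes the immune checkpoint receptor VISTA, lies within Cdh23 on the same strand as Gm17455 and ends 27.0 kb upstream of its start. Vsir was at 110 to 121 TPM in GMP, 752 to 808 TPM in preNeu and 1234 to 1330 TPM in matNeu. Psap, which encodes the precursor of the lysosomal saposins, ends 97.1 kb upstream and was at 732 to 883 TPM in GMP, 420 to 508 TPM in preNeu and 1700 to 1901 TPM in matNeu. Both rose from preNeu to matNeu, Vsir by 0.73 ± 0.09 and Psap by 1.97 ± 0.11 on the log2(TPM + 1) scale (SE, adjusted p = 4.71e-05 and 9.06e-08, limma). From GMP to preNeu Vsir rose by 2.73 ± 0.09 (adjusted p = 7.95e-09, limma), while Psap was lower by -0.82 ± 0.11 (adjusted p = 0.000117, limma), a step where the median of all genes was -0.52.

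No CHD4 peak lay at the start of Gm17455, defined as 2 kb upstream to 500 bp downstream, in wild type or in Gfi1-/- GMPs. For comparison, 13.4% (95% Wilson interval 12.7 to 14.2) of 8828 protein-coding genes at the same TPM threshold had one in wild type GMPs and 2.503% (2.20 to 2.85) in Gfi1-/- GMPs, so a start without CHD4 was the common case. The nearest CHD4 peak of wild type GMPs was at chr10:60389308-60389895, with a fold enrichment of 9.22 and a -log10 q of 20.0. Its edge was 9.83 kb upstream of the start, within intron 31 of Cdh23 and over 0 of its exons. Of all 35790 CHD4 peaks of wild type GMPs, 60.9% had a fold enrichment as low or lower. A wild type CHD4 peak within 10 kb of the start was found for 30.4% (29.5 to 31.4) of the protein-coding genes. Among the 2289 coding genes with their highest mean in matNeu, as in Gm17455, these shares were 21.5% (19.9 to 23.3) at the start and 44.4% (42.4 to 46.5) within 10 kb in wild type GMPs and 4.85% (4.04 to 5.81) at the start in Gfi1-/- GMPs. Among CHD4 peaks of Gfi1-/- GMPs, 0 lay within 40 kb of Gm17455. A Gfi1-/- peak within 10 kb of the start was found for 7.50% (6.97 to 8.07) of the protein-coding genes. Among those highest in matNeu the share was 12.4% (11.1 to 13.8). Having none within 10 kb was thus the common case, and shares within 40 kb were not computed. The Gfi1-/- list held 7316 peaks in all against 35790 in wild type, and with 1 library per genotype the difference has no replicate check.

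**Figure D2:**
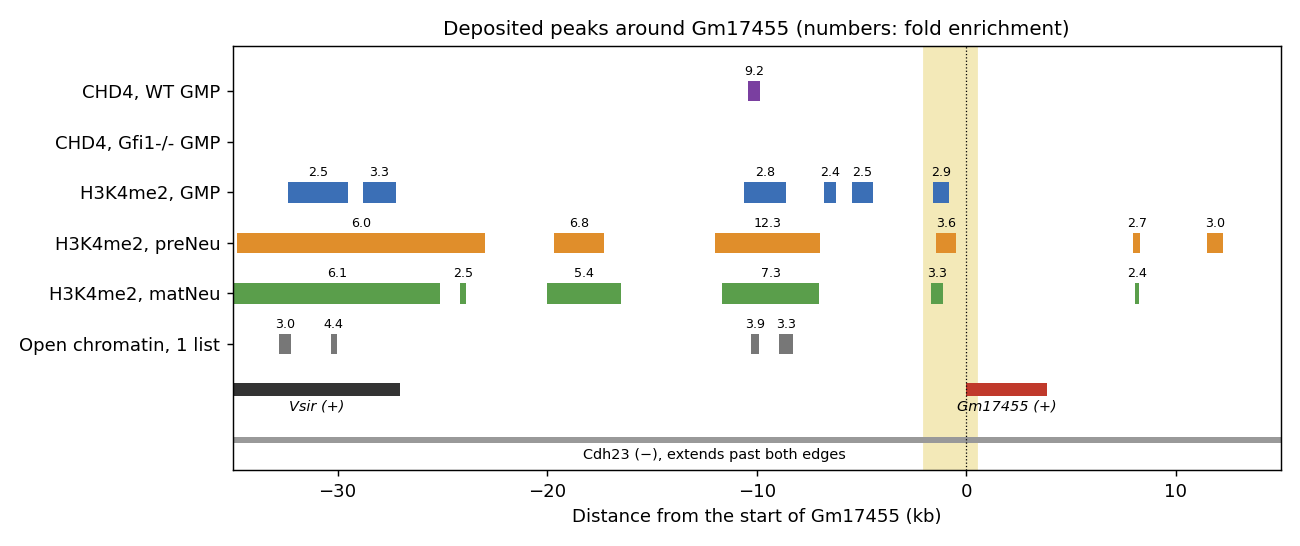
Deposited peaks by distance in kb from the start of Gm17455 (dotted line), 1 row per peak list, with the fold enrichment of each peak above it and the window of 2 kb upstream to 500 bp downstream shaded. The shaded window holds a small H3K4me2 peak in each stage and no CHD4 or open chromatin peak, while CHD4, H3K4me2 of all 3 stages and open chromatin meet about 10 kb upstream.

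An H3K4me2 peak fell in the start window of Gm17455 in all 3 stages, and all 3 were weak and lay off the start. The GMP peak (chr10:60398155-60398893) had a fold enrichment of 2.86 and a -log10 q of 2.24 and ended 833 bp upstream of the start. The preNeu peak (chr10:60398298-60399232) had a fold enrichment of 3.63 and a -log10 q of 3.97 and ended 494 bp upstream. The matNeu peak (chr10:60398068-60398617) had a fold enrichment of 3.27 and a -log10 q of 3.57 and ended 1109 bp upstream. None of the 3 covered the start itself or reached a -log10 q of 5. The matNeu peak also fell outside a window of 1 kb on either side.

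Having H3K4me2 in the window was the rule for expressed genes. It was found at 90.4% (95% Wilson interval 89.7 to 91.0), 93.2% (92.7 to 93.7) and 92.5% (91.9 to 93.0) of the protein-coding genes in GMP, preNeu and matNeu. A peak over the start base itself, which Gm17455 lacked, was found at 77.4% (76.5 to 78.3), 91.1% (90.5 to 91.7) and 89.8% (89.2 to 90.4) of them. Among coding genes with a peak, the median fold enrichment was 3.56 in GMP, 10.6 in preNeu and 8.53 in matNeu. The share of them at or below the Gm17455 peak was 5.20% in GMP, 1.59% in preNeu and 1.75% in matNeu. In matNeu, where the transcript was highest, the mark near its start was thus weaker than at nearly all coding starts with a peak. Among the 2289 coding genes with their highest mean in matNeu, 74.0%, 87.6% and 86.8% had an H3K4me2 peak over the start in GMP, preNeu and matNeu.

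**Figure D3:**
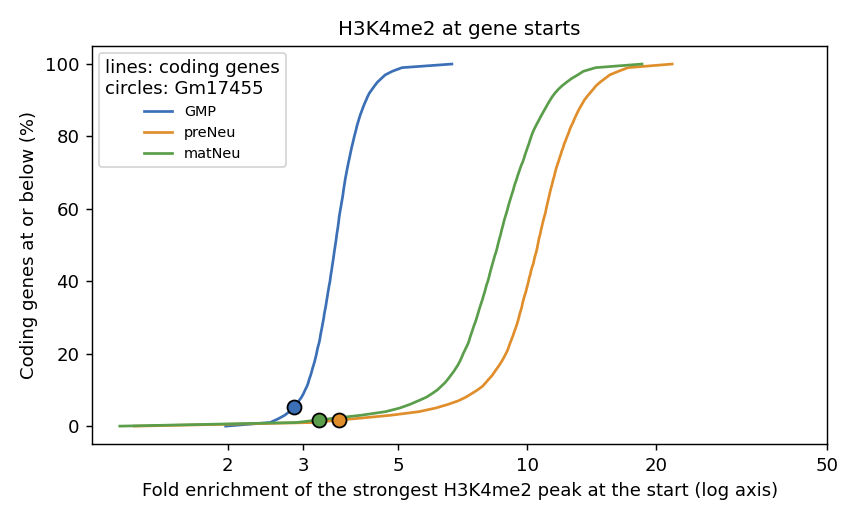
Cumulative share of protein-coding genes (vertical axis, %) by the fold enrichment of their strongest H3K4me2 peak at the start (log axis) in GMP, preNeu and matNeu, with Gm17455 as a circle on each curve. The circles sit at 2.86, 3.63 and 3.27, at or below the 5.20% point of each curve.

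In preNeu and matNeu, but not in GMP, stronger H3K4me2 than at the start stood upstream, at the CHD4 peak. There the H3K4me2 peak was 2042 bp wide with a fold enrichment of 2.81 in GMP, 5009 bp wide with 12.3 in preNeu and 4634 bp wide with 7.34 in matNeu. All 3 contained the CHD4 peak of wild type GMPs, and their nearest edges were 8.58, 6.96 and 7.01 kb from the start of Gm17455. With 1 library per stage, and with list medians of 2.89, 4.55 and 3.78, the change between stages was not tested. A pair of open chromatin peaks lay within the preNeu and matNeu peaks, with fold enrichments of 3.90 and 3.31, and the first of them (chr10:60389451-60389856) lay inside the CHD4 peak. No open chromatin peak fell at the start of Gm17455, where 68.8% (67.8 to 69.7) of the protein-coding genes had one. The preNeu and matNeu lists of open chromatin were identical line by line and were used as 1 list, so they carry no difference between stages.

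The other 11 genes typed lincRNA fell below the threshold. Just outside it was Gm5113, at 1.10, 1.68 and 4.79 TPM in GMP, 0.374, 3.85 and 1.19 TPM in preNeu and 2.46, 2.24 and 1.91 TPM in matNeu. Next came Gm5464, at 1.26 to 1.97 TPM in GMP, 0.181 to 2.14 TPM in preNeu and 1.62 to 2.80 TPM in matNeu. The third was Gm5111, at 0 to 1.99 TPM in GMP, 0 to 0.593 TPM in preNeu and 1.03 to 1.24 TPM in matNeu. Gm17455 stood alone above the threshold by a wide margin, since the highest stage mean of the rest was 2.52 TPM. In these 3 genes the stages overlapped except for preNeu below matNeu in Gm5111, and none passed the test in any comparison (lowest adjusted p = 0.0853, limma). Traces were listed for B020004C17Rik and Gm5878, with no library above 0.328 TPM, and the other 6 genes were at 0 in all 9 libraries. M21 types 8 of the 12 as lincRNA, 3 as protein coding and 1 as a processed transcript.

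The H3K4me2 peaks at Gm5113 and Gm5464, and that of Gm5111 in GMP, covered the start, unlike those at Gm17455 and 2200002J24Rik. Gm5113 starts 125 bp from the zinc finger gene Zfp146 and Gm5464 162 bp from Dpysl2, a regulator of microtubules in axons, each on the opposite strand to its neighbour. Both carried H3K4me2 over the start in every stage, with fold enrichments of 3.27, 9.79 and 9.90 in GMP, preNeu and matNeu at Gm5113 and of 4.09, 13.0 and 9.46 at Gm5464, and both had an open chromatin peak over the start. Gm5113 and Gm5464 had stage means of 1.16 to 2.52 TPM, while Gm17455, at 44.2 TPM in matNeu, had no H3K4me2 over its start. Gm5111, with stage means of 0.256 to 1.17 TPM, had an H3K4me2 peak over the start in GMP alone, with a fold enrichment of 2.82. Its span overlaps that of the coding gene Gm45021 on the same strand. 2200002J24Rik, at 0 TPM throughout, had H3K4me2 peaks within its window in preNeu and matNeu with fold enrichments of 3.05 and 2.56, which missed the start by 455 and 348 bp. In all, 4 of the 12 typed genes had H3K4me2 at the start in GMP, 4 in preNeu and 4 in matNeu. They were not the same 4 throughout, while 2 of the 12 had open chromatin and 0 had CHD4. Among coding genes at 5 TPM or more, H3K4me2 was at 90.4%, 93.2% and 92.5% in these stages. Open chromatin was at 68.8% of them, and CHD4 of wild type GMPs at 13.4%. All typed genes but Gm17455 lay below that level and shares over all genes were not computed, so nothing is read from these counts. A group of 3 CHD4 peaks lay 2.77 to 4.46 kb downstream of the start of Gm5464, with a fold enrichment of up to 11.4, and as many lay 2.87 to 4.25 kb downstream of that of Gm1587, at 0 TPM in all 9 libraries, with up to 11.2.

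**Figure D4:**
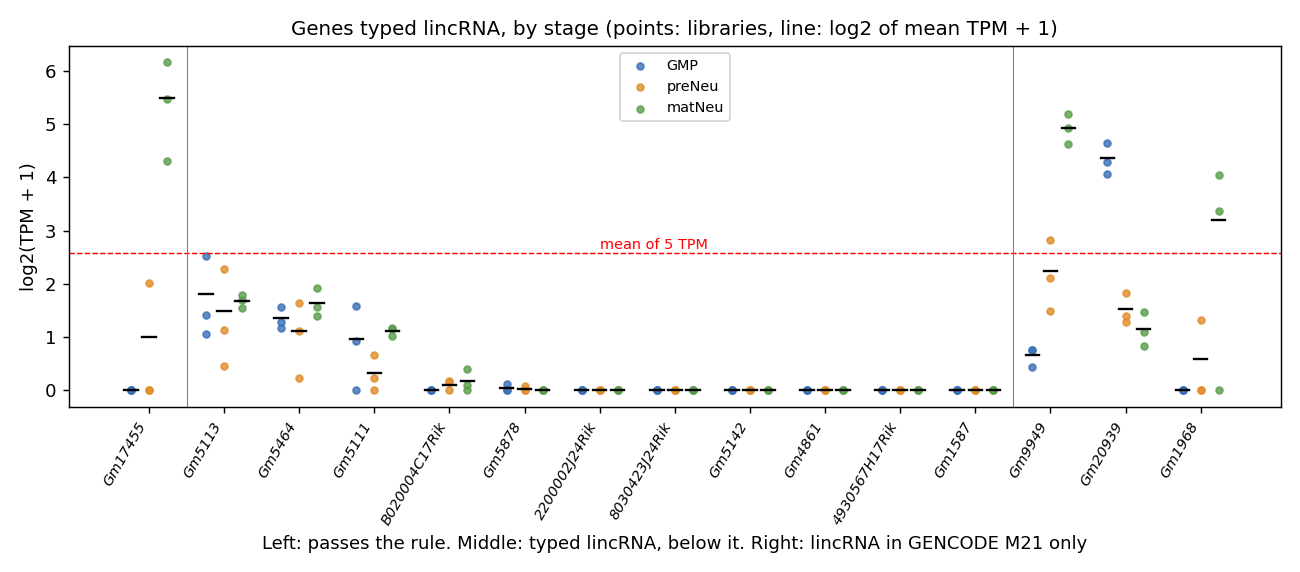
Levels on the log2(TPM + 1) scale in GMP, preNeu and matNeu for the 12 genes typed lincRNA and for the 3 genes that are lincRNA only in GENCODE M21, with 1 point per library, lines at the mean TPM and the 5 TPM threshold dashed. Gm17455 alone of the 12 crosses the threshold, in matNeu, and the next highest typed gene, Gm5113, has stage means of 1.81 to 2.52 TPM.

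The choice of annotation set the membership. When the gene type was taken from GENCODE M21 instead, an alternative chosen after the data had been seen, 21 genes of the table were lincRNAs and 3 of them had a stage mean of at least 5 TPM. All 3 were typed protein coding in the table (Gm9949 and Gm20939 also in RefSeq), and Gm17455 was not among them. Gm9949 was at 0.354, 0.683 and 0.698 TPM in GMP, 3.35, 6.07 and 1.83 TPM in preNeu and 35.3, 29.4 and 23.8 TPM in matNeu, with no overlap between stages. Like Gm17455 it was highest in matNeu. Its start carried what that of Gm17455 lacked. Wild type GMPs had a pair of CHD4 peaks in the window, with fold enrichments of 16.1 and 9.05. Gfi1-/- GMPs had 1 there, with 7.49. H3K4me2 covered the start with 4.11, 11.8 and 9.77 in GMP, preNeu and matNeu. The CHD4 pair was not particular to the start, since wild type GMPs had 12 CHD4 peaks within 10 kb of it. The strongest of these, at 33.8, lay 6.54 kb upstream. The H3K4me2 peaks over the start were 11681 bp wide in preNeu and 12177 bp wide in matNeu. The coding genes nearest to Gm9949 were not looked up. Gm20939 went the other way, at 24.2, 18.5 and 15.7 TPM in GMP against 1.43 to 2.56 TPM in preNeu and 0.795 to 1.77 TPM in matNeu. H3K4me2 covered its start in every stage with fold enrichments of 3.35, 8.78 and 8.85, in lists that differ in their median enrichment. Gm1968 was at 15.4, 9.32 and 0 TPM in matNeu, so its libraries disagreed, and it had no H3K4me2 or CHD4 peak in its window. An H3K4me2 peak of GMPs, with a fold enrichment of 2.40, began 546 bp downstream of its start, just outside the window. The 1 name of the fixed lists of well-known noncoding RNAs that matched a gene of the table, the snoRNA host Snhg11, was typed protein coding and was at 2.72 to 3.89 TPM in GMP, 3.04 to 6.12 TPM in preNeu and 11.4 to 13.99 TPM in matNeu. The other names of those lists were not analysed here.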

How the data were processed

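The TPM values were deposited by the authors per gene and library, and the submitters' processing notes name kallisto 0.44.0 and mm10, while the labels and methods describe Tophat with HTSeq counting. The peak lists were deposited by the authors with a fold enrichment (a ratio of signal to background) per peak, and the authors' -log10 q was used as deposited. The notes name BWA 0.7.17 and MACS2 2.1.0. Each list comes from 1 library. The H3K4me3 and GFI1 lists were not used, since their chromosome names are not those of the mouse.

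Stages were compared by limma 3.58.1 (R 4.3.3) after log2 transformation with a pseudocount of 1, keeping genes that reached 1 TPM in 3 or more of the 9 libraries, with a trend and Benjamini-Hochberg adjustment at 0.05. The fit was tested on simulated data in which only genes well above 0 in GMP were changed. A change in a gene at 0 in GMP, such as Gm17455, was thus not covered. A gene counted as carrying a peak at the start if 1 bp or more of a peak fell between 2 kb upstream and 500 bp downstream of its GENCODE M21 start. Intervals are 95% Wilson intervals and cover counting error over genes only. Transcripts were compared by BLAST 2.17.0, and sequences were read with samtools 1.23.1.

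The members and gene lists were chosen with earlier results of these data known. Named genes were the members with the highest stage means, the largest changes in each comparison, those on fixed lists, those with CHD4 or stage-dependent H3K4me2 at the start, and the 3 genes on either side of the threshold. The promoter and summit sequences follow that rule only in part, since no member had a CHD4 peak at its start. The neighbours of Gm17455 and the genes from GENCODE M21 were chosen after their values were seen.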

Additional observations from a re-analysis of the deposited data

How the results depend on the processing

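The number of expressed genes typed lincRNA stayed at 1 with thresholds of 3 or 10 TPM, with all 3 libraries of a stage required to reach 5 TPM, and without replicate 1, 2 or 3. It was 3 with the gene type of GENCODE M21 and 4 with either type, both added after the data were seen. At a -log10 q of at least 5, the H3K4me2 peaks at the start of Gm17455 fell to 0 in GMP, 0 in preNeu and 0 in matNeu, and with a window of 1 kb on either side the matNeu peak fell to 0. The other alternatives changed no count of peaks at its start. The calls of Gm17455 are not read as stable or unstable under the alternatives, since its matNeu level chose it and took it past the filter on low values. In the fit on GMP and preNeu alone it failed the filter on low values. Its matNeu to preNeu difference ranged from 4.22 to 5.31 without single libraries. Its preNeu to GMP difference was 0.00 without preNeu replicate 3. With a pseudocount of 0.1 the differences were 1.66 for preNeu against GMP, 6.94 for matNeu against preNeu and 8.59 for matNeu against GMP, since values of 0 in GMP and preNeu make them depend on the pseudocount. Replicate numbers are shared by the stages, and the labels do not say whether they pair the libraries. Same-numbered libraries correlated in their deviations from the stage means by -0.04 to 0.12, and differently numbered ones by -0.13 to 0.07. These correlations cannot exclude a shared mouse or sort day, so pairing remains unknown. With the replicate block the number of members called was 0 for preNeu against GMP, 1 for matNeu against preNeu and 1 for matNeu against GMP, as without it. With 1 gene chosen, no statement about expressed lincRNAs as a class can be made, and single libraries behind each peak list leave differences between stages or genotypes without a replicate check.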
